A study of Mus musculus with 4 samples.

Results

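Genomic imprinting restricts expression of a gene to the copy inherited from one parent, and 10 imprinted genes of growth and brain were examined here: Igf2, H19, Igf2r, Grb10, Phlda2, Mest, Peg3, Nnat, Ndn and Gnas. The members were all probe sets of the deposited table to which the platform annotation gives one of these symbols and no other. This gave 17 probe sets for 9 of the 10 genes, among 10833 probe sets with 1 symbol for 8251 genes. H19 had no member probe set, because its probe set was annotated with a second symbol, Mir675. Of the 17 probe sets, 11 were of the plain _at class, 4 of the _s_at class, 1 of the _f_at class, 1 of the _g_at class and 0 of the _r_at class. The _s_at and _f_at classes can detect related transcripts.

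The series compared mouse R1 embryonic stem (ES) cells, an established pluripotent line, with neural stem cell cultures on 4 Affymetrix MG_U74Av2 arrays. R1 cells kept detached as embryoid bodies for 48 hours with LIF, the cytokine that holds ES cells undifferentiated, gave 2 arrays, titled aggregation and suspension. R1 cells on gelatin, adherent and also with LIF, gave 1 array, and neurospheres from E13.5 (embryonic day) telencephalon, grown with FGF2, gave 1 array. All R1 media held beta-mercaptoethanol as well. The labels name astrocytes, glia and oligodendrocytes as contaminants of the neurospheres, and give no strain, pooling or passage for them. Nothing says that the arrays of the embryoid bodies came from separate cultures, so p-values reflect the spread of those 2 arrays alone and it may be technical. That spread is also the difference between the aggregation and suspension culture forms, whose arrays were deposited at different scales. The neurosphere and adherent groups had no replicate and were assumed to vary like the embryoid bodies.

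In imprinted loci, DNA methylation laid down in the germ line marks the silent or the active copy, and the genes lie in clusters that share one control region. Paternally expressed genes of the set include the growth factor gene Igf2, and many maternally expressed ones restrain growth. In the brain, Nnat, Ndn, Peg3 and Gnas are known for expression in neurons and in neural or endocrine tissue. The arrays measured total RNA of each gene and did not separate the parental copies. In such bulk samples, fewer cells of a type and less RNA per cell cannot be told apart.

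Promoter sequences of Nnat and Ndn are shown because these genes had the largest rises in neurospheres among the members, and that of Phlda2 because it had the largest fall. Each is the stretch of 250 bases before the RefSeq start in build GRCm38.p6, 5′ to 3′, at chr2:157559828-157560077 on the + strand for Nnat, chr7:62348027-62348276 on the + strand for Ndn and chr7:143502525-143502774 on the - strand for Phlda2. Capitals mark GCATGCGC or its reverse complement, the core recognition letters of the transcription factor NRF1, and the TATA box letters TATAAA.
Nnat: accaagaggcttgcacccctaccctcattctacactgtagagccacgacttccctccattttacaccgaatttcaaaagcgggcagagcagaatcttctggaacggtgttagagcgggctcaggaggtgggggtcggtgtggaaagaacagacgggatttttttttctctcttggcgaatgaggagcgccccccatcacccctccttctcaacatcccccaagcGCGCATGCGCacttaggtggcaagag
Ndn: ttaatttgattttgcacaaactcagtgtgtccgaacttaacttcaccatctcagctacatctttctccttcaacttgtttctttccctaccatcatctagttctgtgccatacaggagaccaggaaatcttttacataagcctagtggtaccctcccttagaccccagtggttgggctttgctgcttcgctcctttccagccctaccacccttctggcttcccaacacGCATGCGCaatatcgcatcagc
Phlda2: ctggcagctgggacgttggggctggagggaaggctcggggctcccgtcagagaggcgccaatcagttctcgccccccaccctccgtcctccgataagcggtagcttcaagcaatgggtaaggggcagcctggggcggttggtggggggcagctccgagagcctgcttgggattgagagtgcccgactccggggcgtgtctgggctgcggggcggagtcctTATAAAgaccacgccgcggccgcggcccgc
Nnat held GCATGCGC on both strands as overlapping matches that began 26 and 24 bases before the start, and Ndn held it 22 bases before the start. Among the 18 RefSeq promoter windows of the 9 genes, each reaching from 250 bases before to 50 after the start, these were the 2 with a match on either strand, against 2.71% of all 32851 such windows. TATAAA was found on either strand in 4 windows, 3 of them of Gnas and 1 of Phlda2, against 13.6% of all windows. The Gnas windows whose matches began 85 and 104 bases before the start overlap and share 1 site. In Phlda2, TATAAA began 30 bases before the start. CCATCTTG, searched on both strands as well, was in 0 of the 18 windows and in 2.12% of all. The letters searched were chosen after the sequences were read, and a match is a description of the window only.

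Signals are MAS5 intensities scaled so that each array had the same trimmed mean. The array medians after scaling were 178 to 242 and the 10th percentiles 17.4 to 33.8. No detection calls were used, so low signals were not told apart from background. As a check of the labels, 10 of 10 pluripotency markers lay above the array median on each R1 array and 3 of 10 in neurospheres. Of 9 neural progenitor markers on the array, 7 lay above the median in neurospheres and 2 to 4 on the R1 arrays. The aggregation and neurosphere arrays had been deposited at trimmed means of 32.5 and 29.5, and the suspension and adherent arrays at 1485 and 1490, so results are also given against the aggregation array alone. A probe set was tested where 1 or more of the 4 arrays had it at or above their median, which left 8031 on the array and 13 of the 17 members. The 4 probe sets not tested were 2 of Gnas, 1 of Grb10 and 1 of Igf2.

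**Figure D1:**
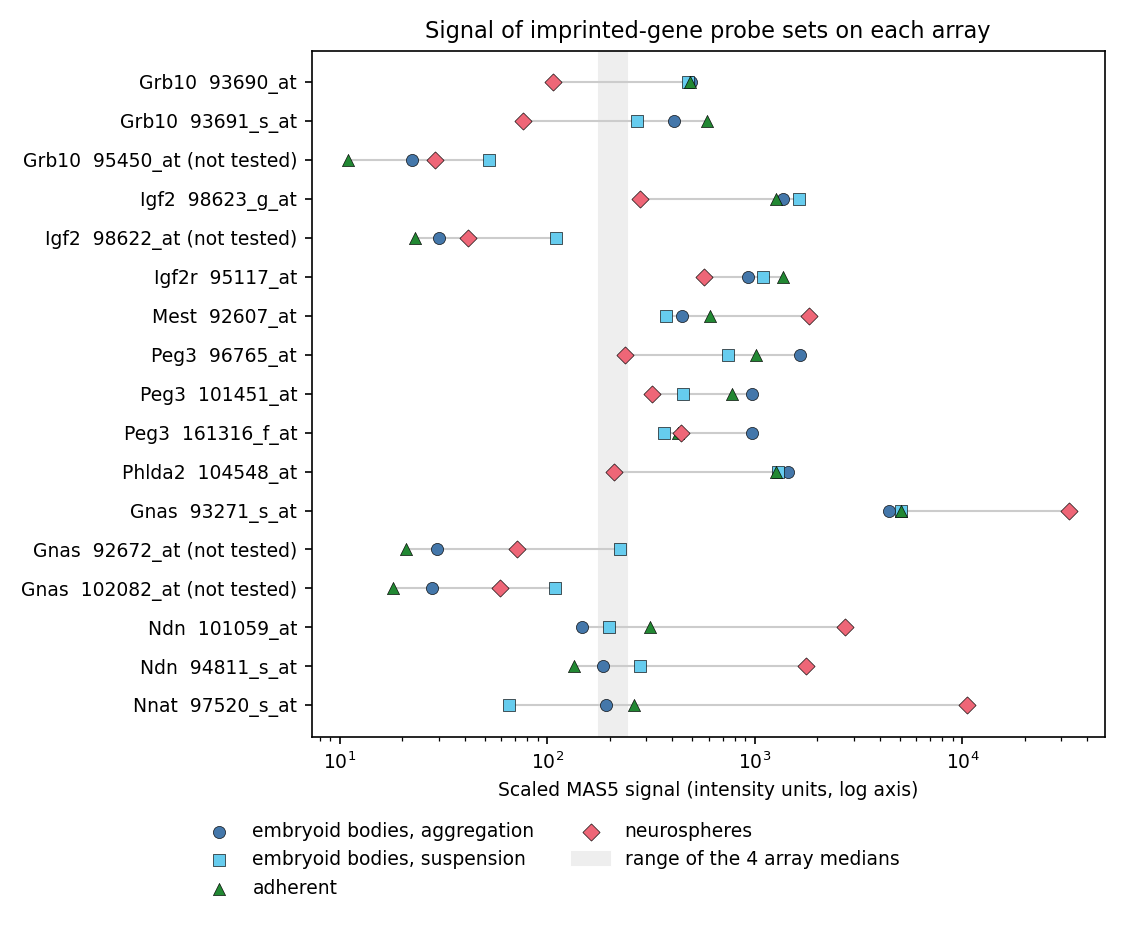
Scaled MAS5 signal (log axis) of the 17 probe sets on each of the 4 arrays; each point is 1 array, grey lines join the lowest and highest, and the shaded band spans the array medians of 178 to 242. Neurospheres lie to the right of every R1 array for Nnat, both Ndn probe sets, Gnas 93271_s_at and Mest, and to the left for Phlda2, Igf2 98623_g_at, Igf2r, the tested Grb10 probe sets and Peg3 96765_at and 101451_at.

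The first comparison asked how the imprinted genes differ between neural stem cell cultures and ES cells. Nnat, Ndn, Gnas and Mest rose in neurospheres, and Phlda2, Igf2, Grb10, Igf2r and 1 of the 3 Peg3 probe sets fell. In limma's test of neurospheres against R1 cells (adherent and averaged embryoid body arrays, weighted equally), with an adjusted p under 0.05, 5 of the 13 tested member probe sets rose, where 8.09% of all tested probe sets did. Another 6 fell, where 11.6% of all did, and 2 did not pass, so that 11 of 13 were called against 19.7% of all. Neurospheres were at least 2-fold above every R1 array for 5 of the 13, where 10.4% of all were, and at least 2-fold below for 5, where 11.1% of all were. Some members reached the test only through the group in which they were high, and probe sets of one gene share their target, so the counts describe these members alone. Neurospheres lay above every R1 array for 5 of the 13 (34.8% of all), below for 7 (32.1% of all) and within their range for 1. All 11 called probe sets lay outside the range of the R1 arrays. Their direction against the aggregation array alone was thus fixed and is no separate check. Against that array the differences were 1.95 to 5.55 for the rises and -0.67 to -2.64 for the falls on the log2 scale. Differences throughout are on the scale of log2(scaled signal + 32), which understates changes of dim probe sets. The median of the members' differences was -0.999, against 0.10 over all tested probe sets, and the median size without sign was 2.13 against 0.71.

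**Figure D2:**
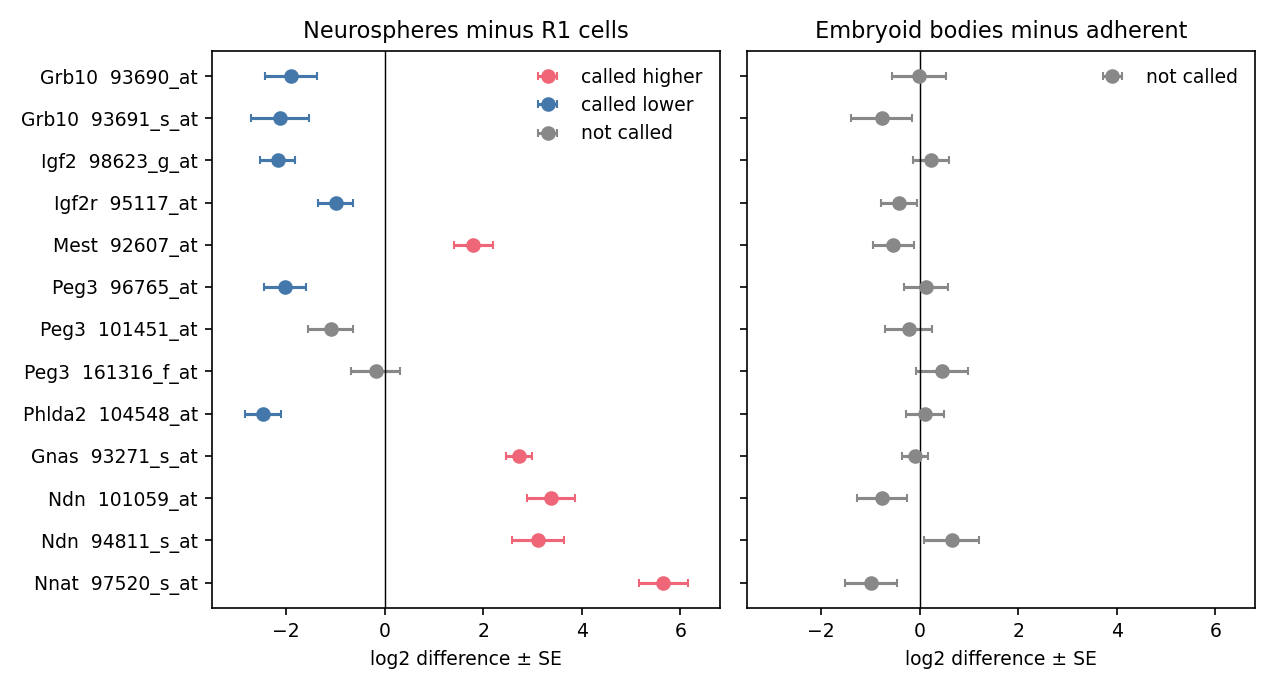
Log2 differences ± SE from limma for the 13 tested member probe sets, neurospheres minus R1 cells on the left and embryoid bodies minus adherent cells on the right. On the left 5 probe sets are called higher and 6 lower; on the right 0 are called.

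Among the brain genes, Nnat encodes neuronatin, a small membrane proteolipid of the developing brain, and is expressed from the paternal copy. Its scaled signal was 192 in aggregation, 65.2 in suspension, 262 in adherent cells and 10477 in neurospheres. The R1 arrays differed among themselves, with adherent cells above their array's median of 178 and the other R1 arrays below theirs, while neurospheres were 40.0-fold above the highest and 161-fold above the lowest of them. Nnat rose by 5.66 ± 0.50 (SE; limma adjusted p = 2.75e-08). Blcap, the gene within which Nnat lies, was not called (0.91, adjusted p = 0.266) and had signals of 518 in neurospheres and 243 to 315 on the R1 arrays.

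Ndn encodes necdin, a MAGE family protein of postmitotic neurons that restrains growth, and is expressed from the paternal copy. Its probe set 101059_at gave 146 in aggregation, 199 in suspension, 311 in adherent cells and 2707 in neurospheres. Its second probe set, 94811_s_at, gave 185 in aggregation, 281 in suspension, 134 in adherent cells and 1768 in neurospheres. Neurospheres exceeded the highest R1 array 8.70-fold and 6.30-fold, but they ordered the R1 arrays differently. The rises were 3.38 ± 0.49 (adjusted p = 2.45e-05) and 3.11 ± 0.53 (adjusted p = 1.83e-04). Other genes of the Prader-Willi and Angelman cluster around Ndn that had a probe set of their own did not pass or were dim. Snrpn, Snurf and Peg12 of that cluster had none. Ube3a, the ubiquitin ligase expressed from the maternal copy in neurons, lay at 0.66 (adjusted p = 0.520), and Mkrn3 lay at 0.53 (adjusted p = 0.599). Magel2, the neighbour of Ndn with 0 protein-coding genes between them, was dimmer than the median of each array, at 73.8 in neurospheres and 28.8 to 119 in R1 cells.

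Gnas encodes the stimulatory G protein subunit alpha, which activates adenylyl cyclase, and its locus also gives paternally and maternally expressed transcripts from other promoters. Probe set 93271_s_at gave 4446 in aggregation, 5037 in suspension, 5055 in adherent cells and 32524 in neurospheres. The R1 arrays were close together, and neurospheres were 6.43-fold to 7.32-fold higher, a rise of 2.73 ± 0.26 (adjusted p = 8.60e-08). The other Gnas probe sets, both of the _at class, were not tested and did not share this pattern. Probe set 92672_at gave 71.4 in neurospheres and 20.9 to 225 on the R1 arrays, and 102082_at gave 59.0 in neurospheres and 18.0 to 109 on the R1 arrays. Suspension was the highest array for both. In a fit without the signal filter they lay at 0.34 ± 0.80 (adjusted p = 0.843) and 0.43 ± 0.58 (adjusted p = 0.715). Which transcripts of the locus each probe set detects was not examined. Of 17 other genes of the Gs and cAMP pathway on the array, 13 were tested, 2 rose and 0 fell (median 0.76). That median does not describe the list, since Crem reached the test through the neurosphere array alone. Adcy7, Adcy9 and Creb1 reached it through 1 embryoid body array each. Of all tested probe sets 8.09% rose, so 2 of 13 is close to the background. They were Gnb2, a G protein beta subunit (1.54), and Prkar1a, a regulatory subunit of protein kinase A (1.504).

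Among the growth genes, Igf2 encodes insulin-like growth factor 2, a fetal growth factor expressed from the paternal copy. Probe set 98623_g_at gave 1361 in aggregation, 1628 in suspension, 1263 in adherent cells and 278 in neurospheres. Every R1 array was at least 4.53-fold above neurospheres, and the fall was -2.18 ± 0.35 (adjusted p = 9.28e-05). The call ended without the intensity trend in limma's variance prior (adjusted p = 0.0521). The second probe set, 98622_at, was dim on all arrays, with 41.5 in neurospheres and 23.1 to 110 in R1 cells, and was not tested. Without the filter it lay at 0.03 ± 0.56 (adjusted p = 0.979).

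Igf2r encodes the cation-independent mannose 6-phosphate receptor, which takes up IGF2 for degradation and in mouse is expressed from the maternal copy. Its signal was 929.96 in aggregation, 1096 in suspension, 1365 in adherent cells and 572 in neurospheres. Neurospheres were the lowest array, 1.63-fold below the nearest R1 array, and the fall of -0.999 ± 0.35 was close to the threshold (adjusted p = 0.0486). The call held in 2 of 13 alternatives, with 1 added before log2 (adjusted p = 0.0456) and with the AFFX controls included in the scaling (adjusted p = 0.0439), and it ended with R1 cells as 1 group of all 3 arrays (-0.93, adjusted p = 0.176). In that 2-group form it was also not called without aggregation (-1.06, adjusted p = 0.251) or without suspension (-0.94, adjusted p = 0.275).

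Grb10 encodes an adaptor that binds the insulin and IGF1 receptors and restrains their signal, and is expressed from the maternal copy in most tissues and from the paternal copy in neurons. Probe set 93690_at gave 493 in aggregation, 477 in suspension, 489 in adherent cells and 107 in neurospheres. Probe set 93691_s_at gave 407 in aggregation, 269.7 in suspension, 589 in adherent cells and 76.6 in neurospheres. The R1 arrays were nearly equal on the first probe set and spread over a wider range on the second, and neurospheres were the lowest array on both. The falls were -1.91 ± 0.53 (adjusted p = 0.0125) and -2.13 ± 0.59 (adjusted p = 0.0128). With R1 cells as 1 group both calls held (adjusted p = 0.0295 and 0.0405). In that form both ended without the aggregation array (-1.90, adjusted p = 0.113, and -1.996, adjusted p = 0.131), and that of 93690_at also without suspension (-1.92, adjusted p = 0.0921). Without the intensity trend neither was called (adjusted p = 0.0634 and 0.0642), and 93691_s_at was also lost without the signal filter (adjusted p = 0.0503) and against the embryoid bodies alone (adjusted p = 0.0562). The remaining probe set, 95450_at, lay under the 10th percentile on 3 arrays and was not tested (0.18 ± 0.37 without the filter, adjusted p = 0.824). Ddc, the neighbour of Grb10, did not pass (0.17, adjusted p = 0.876).

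Phlda2 encodes a small pleckstrin homology domain protein that limits growth of the placenta, expressed from the maternal copy. It gave 1442 in aggregation, 1287 in suspension, 1261 in adherent cells and 209 in neurospheres. The R1 arrays lay within a narrow range, each at least 6.03-fold above neurospheres, and the fall was -2.48 ± 0.36 (adjusted p = 2.78e-05). Other genes near Phlda2 did not share it. Cdkn1c, an inhibitor of cyclin-dependent kinases, lay at -0.27 (adjusted p = 0.700), Ascl2, a transcription factor of trophoblast, at 0.53 (adjusted p = 0.547), and Cd81, a tetraspanin, rose by 1.09 (adjusted p = 0.00545).

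Mest, also called Peg1, encodes a hydrolase-like membrane protein of mesoderm and brain and is expressed from the paternal copy. Its signal was 448 in aggregation, 373 in suspension, 607 in adherent cells and 1816 in neurospheres. Neurospheres were 2.99-fold above the adherent array and 4.87-fold above suspension, a rise of 1.80 ± 0.40 (adjusted p = 0.00224). This call ended in the fit without the intensity trend (adjusted p = 0.0731).

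Peg3 encodes a large zinc finger protein expressed from the paternal copy, and its probe sets did not give one answer. Probe set 96765_at had 1646 in aggregation, 744 in suspension, 1012 in adherent cells and 237 in neurospheres, and fell by 2.02 ± 0.43 (adjusted p = 0.00151). Probe set 101451_at had 967 in aggregation, 450.3 in suspension, 777 in adherent cells and 318 in neurospheres, and did not pass (-1.10 ± 0.46, adjusted p = 0.0992). Probe set 161316_f_at had 966 in aggregation, 365 in suspension, 428 in adherent cells and 441 in neurospheres, within the R1 range (-0.19 ± 0.50, adjusted p = 0.828). Neurospheres were thus the lowest array on the first 2 probe sets and not on the third, whose difference took both signs over the alternatives (-0.52 to 0.15). With the mean of the 3 probe sets per gene, Peg3 did not pass (-1.10, adjusted p = 0.122). Without the intensity trend the call of 96765_at ended as well (adjusted p = 0.111).

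Set by parental copy, the 3 maternally expressed genes Igf2r, Grb10 and Phlda2 had probe sets that fell. The Igf2r call was close to the threshold and ended in most alternatives, and the Grb10 calls ended in some. Of the 5 paternally expressed genes, Nnat, Ndn and Mest rose, Igf2 fell, and Peg3 fell on 1 of its 3 probe sets. Of all tested probe sets, 8.09% rose and 11.6% fell. Gnas, whose transcripts differ in parental copy, rose. This grouping is textbook background and need not hold in these cells, since Grb10 is expressed from the paternal copy in neurons. The arrays do not show which copy the RNA came from, and the difference between the groups was not tested.

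In the second comparison, of R1 cells detached from their substrate with adherent ones, none of the members passed. Of 13 member probe sets, 0 rose and 0 fell in limma's test of the embryoid body mean against the adherent array, and 0 had an unadjusted p under 0.05. Over the whole array 0.261% rose, 0.0872% fell, 0.349% passed in either direction and 13.7% had an unadjusted p under 0.05. The largest difference was that of Nnat, at -0.99 ± 0.52 (unadjusted p = 0.0711, adjusted p = 0.408), with an embryoid body signal of 129 ± 89.8 (SD, n = 2) against 262 in adherent cells. It rested on which embryoid body array was used, at -1.60 for suspension alone and -0.39 for aggregation alone, where Peg3 161316_f_at lay at 1.12. Suspension and adherent cells were the arrays deposited at like scale, and between them the 13 differences ran from -1.60 (Nnat) to 0.91 (Ndn 94811_s_at). The median size without sign was 0.42 for the members and 0.49 for all tested probe sets. The closest values were those of Grb10 93690_at, at 489 in adherent cells and a mean of 485 ± 10.7 (SD, n = 2) in the detached ones (-0.01 ± 0.55), and of Gnas 93271_s_at, at 4741 ± 418 against 5055 (-0.09 ± 0.27). The Ndn probe sets had opposite signs (-0.76 and 0.65). The adherent array lay between the embryoid body arrays for Grb10 93690_at and for all 3 Peg3 probe sets. With 1 adherent array, differences of this size were not detectable, and the values do not show that the cultures were alike.

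Among the tested probe sets, the embryoid body arrays differed most for Peg3 and Nnat. Signals in aggregation were 2.21-fold, 2.15-fold and 2.65-fold those in suspension for Peg3 96765_at, 101451_at and 161316_f_at, and 2.95-fold for Nnat. These 4 probe sets were at least 2-fold higher in aggregation, where 8.45% of all tested probe sets were. At least 2-fold higher in suspension were 0 of the 13, where 10.1% of all were. The Peg3 probe sets share their gene and are not separate evidence. The median size without sign was 0.37 for the members and 0.39 for all tested probe sets. There is no replicate of either culture form, so no test was made. The 4 untested, dim probe sets differed the other way and 3 of them by more. Signals in suspension were 7.62-fold those in aggregation for Gnas 92672_at, 3.92-fold for Gnas 102082_at, 3.65-fold for Igf2 98622_at and 2.34-fold for Grb10 95450_at.

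**Figure D3:**
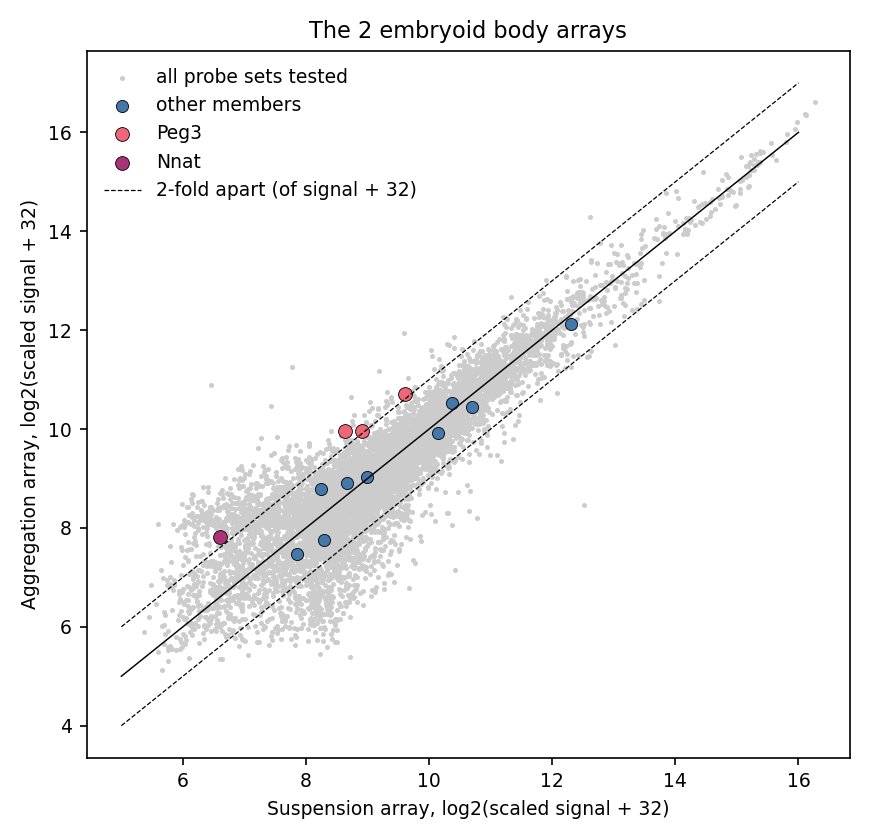
Log2(scaled signal + 32) of the 8031 tested probe sets on the suspension array (x axis) and the aggregation array (y axis), with members coloured and dashed lines 1 log2 unit from equality. The 3 Peg3 probe sets and Nnat lie above the upper line, 2.15-fold to 2.95-fold higher in aggregation by signal.

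Other imprinted genes were taken from a list of 56, some of them imprinted in only some tissues. Of these, 35 were on the array with a probe set of their own and 27 were tested, by the brightest tested probe set of each. In neurospheres 4 of the 27 genes rose, where 8.09% of all tested probe sets did, and 3 fell, where 11.6% of all did. Both counts were close to the background. The median was 0.53, against 0.10 over all. Dhcr7, Osbpl5 and Pon2 reached the test through the neurosphere array alone, and Plagl1 and Slc22a2 through aggregation alone. That median thus does not describe the list. Rises were those of Dhcr7, a cholesterol synthesis enzyme (3.41 ± 0.72, adjusted p = 0.00158), Gatm, an enzyme of creatine synthesis (3.06), Sgce, a sarcoglycan (1.59), and Cd81. Dhcr7 had 75.6 in aggregation, 182 in suspension, 52.7 in adherent cells and 1175 in neurospheres. Falls were those of Meg3, a maternally expressed long noncoding RNA (-2.38 ± 0.42, adjusted p = 2.60e-04), Impact, a regulator of translation (-1.61), and Sfmbt2, a Polycomb-related gene (-1.30). Meg3 had 859 in aggregation, 805 in suspension, 956 in adherent cells and 146 in neurospheres, and both of its probe sets fell. Dlk1, the paternally expressed gene of the same cluster, did not pass (-0.24, adjusted p = 0.754), and neither did Peg10 (-1.70, adjusted p = 0.0547). Between embryoid bodies and adherent cells 0 of the 27 passed, and 4 had an unadjusted p under 0.05, near the 13.7% of all tested probe sets.

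**Figure D4:**
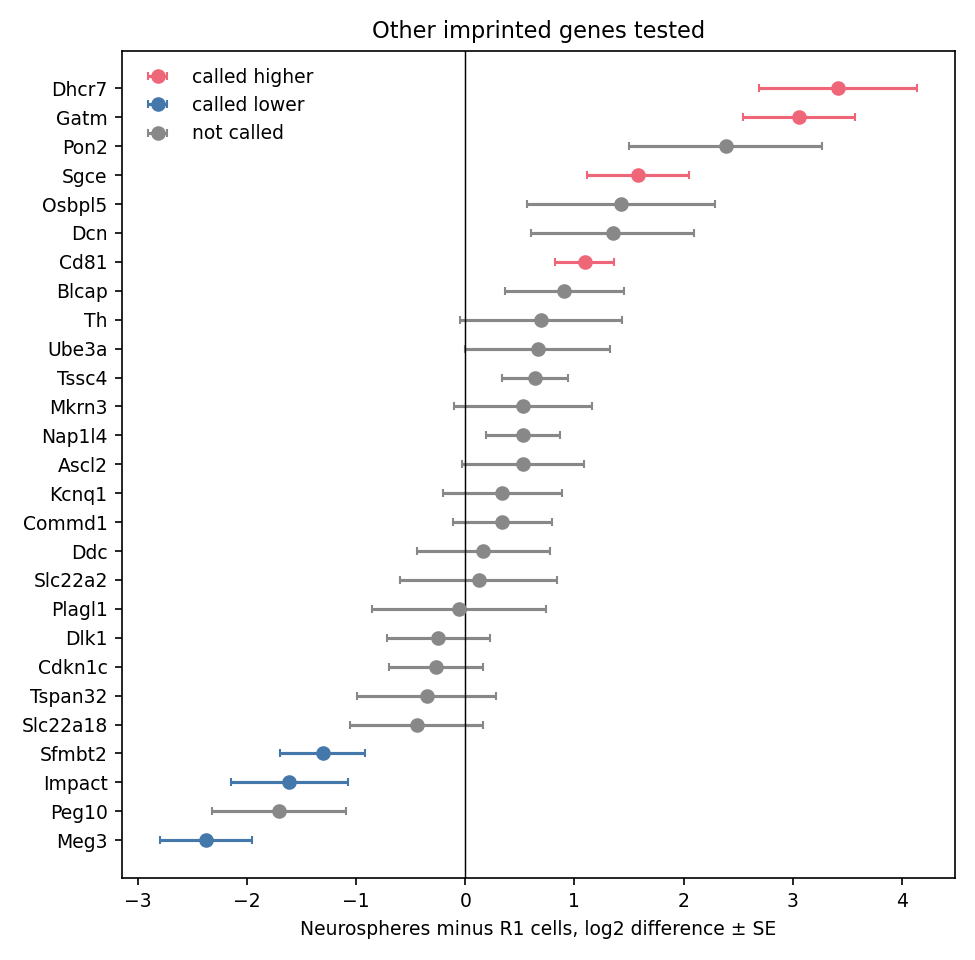
Log2 differences ± SE, neurospheres minus R1 cells, for the 27 other imprinted genes tested. Dhcr7, Gatm, Sgce and Cd81 are called higher and Meg3, Impact and Sfmbt2 lower.

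Of 17 other genes of the IGF pathway on the array, 12 were tested, 4 rose and 1 fell (median 1.33), where 8.09% and 11.6% of all tested probe sets did. Irs2 and Pik3r1 reached the test through the neurosphere array alone, and Igfbp1 through aggregation alone. That median thus does not describe the list. Igf2bp1, an RNA-binding protein that binds Igf2 mRNA, fell by 7.09 ± 0.29 (adjusted p = 6.80e-14). Its signal was 17.8 in neurospheres, below the 10th percentile, and 6244 to 7074 on the R1 arrays. The IGF-binding protein genes Igfbp3 (3.16) and Igfbp2 (2.77) rose, as did the kinase genes Akt1 (2.66) and Akt2 (1.60) downstream of the receptors. Igfbp2 had 2784 in aggregation, 6003 in suspension, 2853 in adherent cells and 23430 in neurospheres, so suspension stood apart from the other R1 arrays. The receptor gene Igf1r did not pass (0.65, adjusted p = 0.309).

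Genes that set, keep, remove or read methylation imprints or the silent state numbered 10 on the array. Of these, 9 were tested, 0 rose and 5 fell (median -0.93), where 8.09% and 11.6% of all tested probe sets did. Tet1 reached the test through suspension alone and Dnmt3a through the adherent array alone, so that median does not describe the list. Zfp57, a zinc finger protein that protects imprints, fell by 3.55 ± 0.49 (adjusted p = 1.38e-05), from 681 to 1996 on the R1 arrays to 69.4 in neurospheres. Its partner Trim28, a corepressor, fell by 1.53 (adjusted p = 3.14e-04). The other falls were those of Hells, a chromatin remodeller (-2.05), Uhrf1, which brings the maintenance methyltransferase to replicated DNA (-0.93, adjusted p = 0.0401), and Dnmt1, that methyltransferase (-0.86, adjusted p = 0.0333). The calls of Uhrf1 and Dnmt1 were the nearest of the 5 to the threshold. Neurospheres were 1.27-fold below suspension for Uhrf1, while aggregation was 1.88-fold above suspension. Dnmt3a, a de novo methyltransferase, did not pass (-0.10, adjusted p = 0.931).

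Markers of other cell types moved with some of these groups. Of 10 astrocyte genes on the array, 9 lay above the array median in neurospheres and 3 to 4 on the R1 arrays, with a summed signal of 25226 against 6381 to 10027. Of 9 tested, 4 rose and 1 fell, where 8.09% and 11.6% of all tested probe sets did. Without Mt3 the sums were 12507 against 5783 to 9253. Of 14 neuron genes, 6 lay above the median in neurospheres and 2 on each R1 array, with sums of 9061 against 5166 to 7259, or 3070 against 2097 to 2933 without Tubb3. Of 6 neuron genes tested, Gap43, a growth cone protein, rose (2.11, adjusted p = 0.0214). Stmn2, a stathmin, fell (-1.92, adjusted p = 1.84e-04), and the median of the 6 was 2.09. The genes Dcx, Gad1, Gap43 and Map2 reached the test through the neurosphere array alone, so that median does not describe the list. In neurospheres the untested neuron genes lay within or below the R1 range. Map2, a dendrite microtubule protein, had 467 in neurospheres and 12.1 to 32.2 on the R1 arrays and did not pass (3.27, adjusted p = 0.0517). Snap25 and Nefm lay below the 10th percentile in neurospheres, at 15.04 and 20.5. Of 8 oligodendrocyte genes, 4 lay above the median in neurospheres and 2 to 3 on the R1 arrays, with sums of 3593 against 1127 to 2193, or 2669 against 1044 to 1999.9 without Nkx2-2. Fibroblast genes numbered 8 of 12 above the median in neurospheres and 5 to 6 on the R1 arrays, with sums of 9486 against 3201 to 6950. Without Fbln2, the only one of 9 tested that was called, neurospheres lay within the R1 range, at 4928 against 2681 to 6696. Endoderm genes numbered 4 of 12 against 3 to 5, with sums of 2491 against 2891 to 3633, or 2451 against 1844 to 2657 without Rhox5. Trophoblast genes numbered 3 of 8 against 4 to 5, with sums of 2111 against 4120 to 4795. Most of that gap was Tfap2c, without which the sums were 2038 against 2220 to 2493. For microglia and endothelium the numbers were 4 of 12 against 4 to 6, with sums of 3043 against 3795 to 4475, or 2607 against 2534 to 3184 without Eng. With 6 genes tested in each, oligodendrocyte genes had 2 rises and 0 falls, and endoderm genes 0 and 2. Trophoblast genes had 0 and 2, and those of microglia and endothelium 1 and 2. The gene left out of each list was the one whose neurosphere signal lay farthest from the R1 mean. The part of such cells in the differences of the imprinted genes was not tested. The fibroblast and trophoblast lists share Dcn and Ascl2 with the list of other imprinted genes.

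The patterns most like each member over the 4 arrays were found by the Euclidean distance between log2 profiles, each centred on its own mean. For Ndn 101059_at the nearest were Astn1, a neuronal migration protein (distance 0.17), and Pla2g7 (0.39), and for Gnas 93271_s_at they were Eci2 (0.18) and Tcea2 (0.20). Nnat had no close match, its nearest being Pfn2 (1.41) and Ptprz1 (1.48). For Mest they were Tut7 (0.11) and B4galt2 (0.13), and for Phlda2 Cyba (0.07) and Atg12 (0.12). For Igf2 98623_g_at they were Plp2 (0.11) and Ang (0.13), for Igf2r Emc8 (0.06) and Smn1 (0.07), for Grb10 93690_at Itm2a (0.05) and Gpx4 (0.06), and for Peg3 96765_at Hus1 (0.12) and Ptgis (0.24). Distances are in log2 units over only 4 arrays, so a small value is a description of these arrays.

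**Figure D5:**
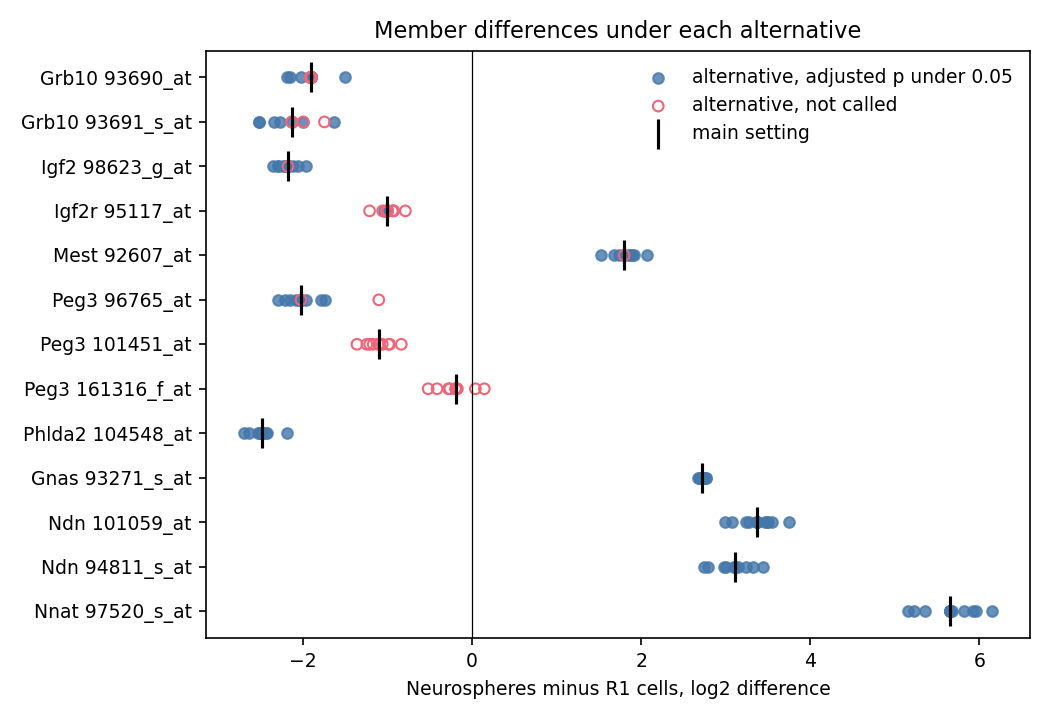
Log2 difference of each tested member probe set, neurospheres minus R1 cells, in the main setting (black bar) and under each alternative, with open circles where the adjusted p was 0.05 or more. Nnat, both Ndn probe sets, Gnas 93271_s_at and Phlda2 are filled in every alternative that gave them a value; Igf2r is open in all but 2.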

How the data were processed

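Total RNA was measured on 4 MG_U74Av2 arrays. The deposited values are linear signal intensities, 1 per probe set and array, made with MAS5 per the submitters' processing notes. Its version and settings are not given in the sources. Of 12488 probe sets, 66 AFFX controls were left out. The trimmed mean of every array (2% left out at each end) was set to 500, and 32 was added before log2. The controls were at first part of that mean; leaving them out was chosen after results of both comparisons had been seen, and the earlier scaling is given as an alternative. Gene names came from the platform annotation (10833 probe sets with 1 gene, 396 with several, 1193 with none). All probe sets were kept separate, and 8031 at or above the array median on at least 1 array were tested.

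One limma model (limma 3.58.1, R 4.3.3) with 3 groups was fitted to all 4 arrays, with an intensity trend. The residual degree of freedom was 1 and the prior contributed 20.46. P-values are two-sided, adjusted by Benjamini-Hochberg over all tested probe sets, with a threshold of 0.05. The code was tested on simulated data. The members and lists were chosen with earlier results of these data known. Named genes were all members, per list up to 6 called genes by size, and the 2 nearest patterns per member; others were chosen after their values were seen. Alternatives changed the added value, filter, scaling, trend, probe set summary, reference and arrays. Promoter sequences are from RefSeq (GRCm38.p6), which held all 9 genes with a probe set.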

Additional observations from a re-analysis of the deposited data

How the results depend on the processing

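Of the member differences between neurospheres and R1 cells, Nnat, both Ndn probe sets, Gnas 93271_s_at and Phlda2 stayed called under every alternative that gave them a value. Over 161 alternative values of the 13 probe sets, 22 lost a call and 0 reversed one. Of the 13 probe sets, 6 fell, against 1 without the intensity trend and 4 against the embryoid bodies alone. As 2 groups 5 fell, and in that form 3 to 4 without one embryoid body array. Other forms count other features, 4 of 17 probe sets without the signal filter, and, of 9 genes, 4 with the brightest probe set per gene and 3 with the mean of the probe sets of a gene, where probe sets of a gene count once. Over the whole array, 650 rose and 935 fell, against 218 and 237 without the trend, 513 and 723 with gene means, 567 and 668 without the filter, 436 and 642 with 2 groups, and 315 to 378 and 460 to 515 without one embryoid body array. Between embryoid bodies and adherent cells, 21 rose and 7 fell, against 0 and 0 without the filter or without the trend, 13 and 2 after quantile normalization, 1 and 1 with gene means, and 24 and 15 with the AFFX controls included in the scaling. That last alternative was the scaling first used and was added after seeing the data; it left the member counts at 5 and 6, with 673 and 969 called over the whole array. Between embryoid bodies and adherent cells 0 members passed in any fit, and without an embryoid body array no residual degree of freedom was left for a test. Quantile normalization moved the median of all differences from 0.10 to 0.03 in the first comparison and from 0.10 to -0.01 in the second. No paired analysis was possible, since the neurosphere and adherent groups had no replicate and the labels give no replicate numbers. Signals near the 10th percentile limit the dim probe sets.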

Other observations

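The probe set annotated with both H19 and Mir675 was not a member, because members had to have 1 symbol. The annotation alone does not assign its signal to H19 or to Mir675. It gave 966 in aggregation, 869 in suspension, 417 in adherent cells and 367 in neurospheres. Both embryoid body arrays were above the other arrays. It did not pass limma's test between neurospheres and R1 cells (-0.71 ± 0.41, adjusted p = 0.245) or between embryoid bodies and adherent cells (1.08 ± 0.43, adjusted p = 0.267, unadjusted p = 0.0199).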
